A study of Homo sapiens with 20 samples.

Results

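The 39 genes described here encode SR proteins, their relatives and heterogeneous nuclear ribonucleoproteins (hnRNPs), RNA-binding proteins that act on nascent transcripts. They were picked by gene symbol from 2 count tables of the LNCaP line, a human prostate adenocarcinoma line that grows in response to androgen. The symbols matched 40 of the 57773 rows of each table, because SRSF8 has 2 rows. In the first table, LNCaP cells had been transfected for 2 days with 20 nM siRNA, either a pool that silences EHMT1 (siEHMT1) or a pool without a target (siNTC), and each group has 2 samples. EHMT1, also called GLP, is a histone H3 lysine 9 methyltransferase. In the second table, 4 LNCaP lines had been infected with lentivirus and selected with puromycin for a V5-tagged, tetracycline-inducible EHMT1 insert, which was either wild-type (WT) or carried arginine in place of lysine 450 (K450R), of the lysine that follows it (K451R) or of both (K450RK451R). Each line was either left as the untreated control (Veh) or given 0.25 μg/mL doxycycline (Dox) for 2 days. Each condition has columns labelled replicates 1 and 2. The question was which genes respond to the loss of EHMT1, and whether the inserts differ in the genes they change. Every stable line also holds the endogenous EHMT1 gene, and a count of EHMT1 does not separate gene and insert. No line without an EHMT1 insert was analysed with Dox, so doxycycline itself and induction of EHMT1 cannot be told apart.

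The 2 columns of each stable-line condition differed by no more than counting noise, with a chi-square per degree of freedom between 0.995 and 1.02, so each pair was summed and counted as 1 library. The siRNA samples differed by far more, at 61.57 for siNTC and 13.39 for siEHMT1. Nothing in the labels says that samples of 1 group came from separate cultures, so p-values for siRNA measure only the spread between these samples. The siRNA samples held 5593400 to 12438006 counts and the stable-line libraries 8436791 to 12407739. A count of 3, taken as the floor of detection, equals 0.241 to 0.536 CPM (the count scaled to a common library size) in the siRNA samples and 0.242 to 0.356 CPM in the stable lines, and floors and intervals cover counting error only. EHMT1 itself fell from 87.8 and 83.6 CPM in siNTC to 29.2 and 30.7 CPM in siEHMT1, a log2 difference of −1.51 with an edgeR adjusted p of 1.48e-07. It was 71.7 to 88.9 CPM with Veh and 662.5 to 842 CPM with Dox in the 4 lines, a log2 change of 3.23 with an edgeR adjusted p of 1.02e-23. Of the luminal prostate markers, KLK3 measured 2917 to 3125 CPM in the siRNA samples and 7349 to 8322 CPM in the stable lines, and KRT8 measured 182 to 196 CPM and 339 to 480 CPM, while the basal markers TP63 and KRT5, the stromal marker COL1A2 and the leukocyte marker PTPRC were at 0 in every library. Summed basal and leukocyte markers reached at most 1.52 CPM, stromal markers (nearly all COL1A1) 15.3 to 40.8 CPM, and the endothelial marker VWF 3.35 to 16 CPM. One library stood apart in composition, since 10.02% of the counts of siNTC replicate 2 fell on a pair of loci that resemble ribosomal RNA (AC010970.2 and CTD-2328D6.1), against 0.0531% to 1.005% in the other siRNA samples.

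SR proteins carry an RNA recognition motif and a domain rich in arginine and serine, bind exonic enhancers and recruit the spliceosome to nearby splice sites. Many hnRNPs bind exonic or intronic silencers and oppose that recruitment, and several also act in RNA export, stability and translation. Phosphorylation of the arginine-serine domain by SRPK kinases in the cytoplasm and CLK kinases in the nucleus sets where SR proteins reside and when they act. Many genes of both families limit their own output by splicing in an exon with a premature stop, which sends the transcript to nonsense-mediated decay. A count per gene adds productive and unproductive transcripts together, so the values below do not tell them apart.

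Of the 40 rows, 38 passed the filter on low counts in each table, and these are 38 different genes. SRSF12, a splicing repressor of the SR family, had 8 and 4 counts in siNTC, 0 and 3 in siEHMT1, and 1 to 9 counts per stable-line library, and it was not tested. The second SRSF8 row had 0 counts in every library. The summed level of all 39 genes was 4207 and 4066 CPM in siNTC and 4137 and 4127 CPM in siEHMT1. In the stable lines it was 3300 CPM with Veh and 3128 CPM with Dox for the WT line, 3285 and 2965 CPM for K450R, 3216 and 2958 CPM for K451R, and 3166 and 3020 CPM for K450RK451R. On this scale (TMM) the sum was lower with Dox in each line. As a share of all counts it went from 0.315% to 0.306% in WT and from 0.316% to 0.290% in K450R, but from 0.312% to 0.313% in K451R and from 0.315% to 0.330% in K450RK451R, so its direction in K451R and K450RK451R depended on the scaling. In the siRNA samples the share was 0.451% and 0.368% in siNTC and 0.419% and 0.416% in siEHMT1.

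To compare levels between genes, CPM was divided by the exon length in kilobases of each gene's canonical transcript, which was found for all members but SRSF8. SRSF9, an SR protein of general splicing enhancers, had the highest level per kilobase in the Veh libraries at 163 ± 3.45 CPM per kilobase (SD, n = 4). HNRNPF, which binds guanine-rich runs, followed at 110 ± 4.10 CPM per kilobase, and HNRNPC, which binds uridine-rich tracts and packages nascent RNA, came next at 95.7 ± 6.02 CPM per kilobase. In siNTC, HNRNPF led at 163 ± 4.83 CPM per kilobase (SD, n = 2), ahead of SRSF9 at 128 ± 1.22. Per kilobase of windows found once in the genome this order turned, with SRSF9 at 179 and HNRNPF at 177 in siNTC, and in the Veh libraries HNRNPF moved from rank 2 to rank 4, behind HNRNPC and HNRNPK. SRSF9 shares 42.6% of its canonical exon bases with GATC on the other strand, so its level is uncertain too. The lowest members were SRSF12 at 0.138 ± 0.0825, HNRNPUL2 at 1.82 ± 0.271 and HNRNPA3 at 2.07 ± 0.327 CPM per kilobase in the Veh libraries. HNRNPUL2 is a relative of HNRNPU, and HNRNPA3 belongs with HNRNPA1 and HNRNPA2B1 in a group of splicing repressors and RNA carriers. HNRNPA3 shares 59.9% of its canonical exon bases with NFE2L2 and a microRNA gene, and HNRNPUL2 shares 45.9% with the readthrough locus HNRNPUL2-BSCL2, which makes their levels uncertain.

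**Figure D1:**
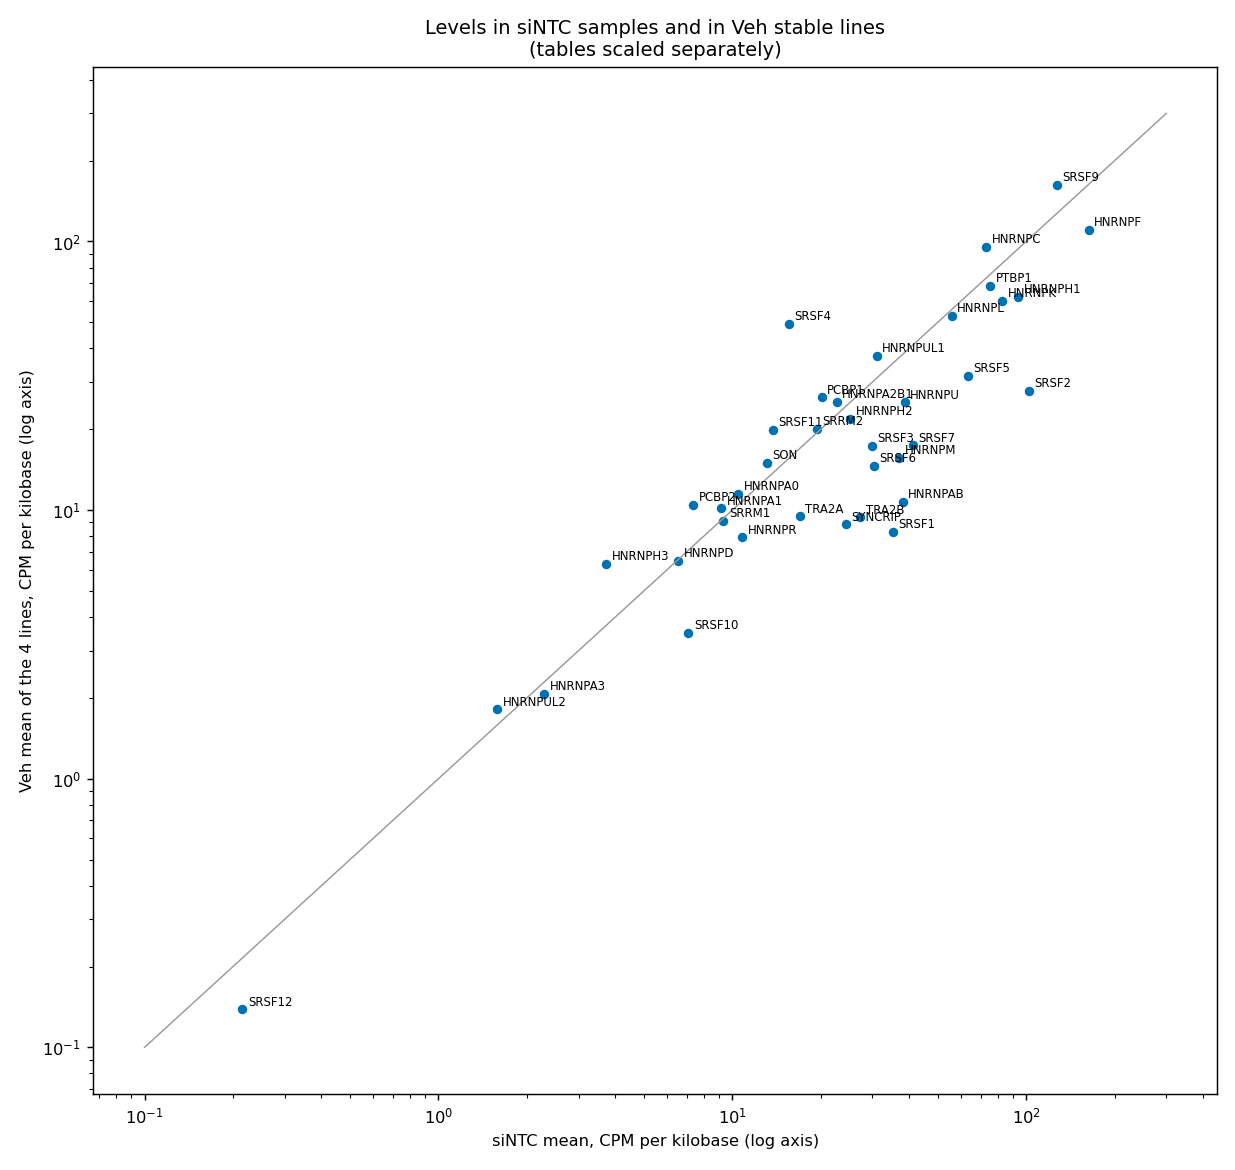
Mean level of each member in CPM per kilobase of canonical exon, on log axes, in the 2 siNTC samples (x) and in the Veh libraries of the 4 stable lines (y). Each point is 1 gene and the grey line marks equal values. SRSF4 lies above the line at 15.6 and 49.4 CPM per kilobase, while SRSF1 and SRSF2 lie below it.

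The 2 tables were scaled separately, and the order of members differed between them. SRSF4 stood at 15.6 ± 0.841 CPM per kilobase in siNTC (rank 25) and 49.4 ± 4.74 in the Veh libraries (rank 8). SRSF1, the founding SR protein and a splicing oncogene, stood at 35.3 ± 0.654 in siNTC and 8.30 ± 0.548 in Veh. SRSF2, which recognises a broad set of exonic enhancers, stood at 102 ± 8.76 and 27.9 ± 2.33. Of their canonical exon bases, 31.6% of SRSF1 are also exons of RP11-159D12.5 on the same strand, and 30.1% of SRSF2 are also exons of MFSD11 or MIR636. These values are set side by side without a test, because table, transfection and lentiviral insert change together and cannot be told apart. Levels of members with identical stretches elsewhere in the genome are uncertain. Only 7.4% of the 51-base windows of the canonical SRSF10 transcript occurred once in GRCh37, and 65.7% to 72% of those of HNRNPK, HNRNPA1, HNRNPC, HNRNPA3 and SRRM1. Per kilobase of windows found once, SRSF10 moved from rank 35 to rank 9 in the Veh libraries.

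No member passed the threshold when EHMT1 was silenced. With edgeR's quasi-likelihood test, 0 of the 38 members had an adjusted p under 0.05, against 19 of 14532 genes (0.131%), and DESeq2 and limma-voom also called 0. At an unadjusted p under 0.05, 1 member was higher and 3 were lower, beside 9.55% of all genes. The median log2 difference of the members was −0.00534, and that of all genes was −0.00208. In 13 members the 2 groups did not overlap, 7 of them lower and 6 higher with siEHMT1, while 39.7% of all genes had groups that did not overlap.

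**Figure D2:**
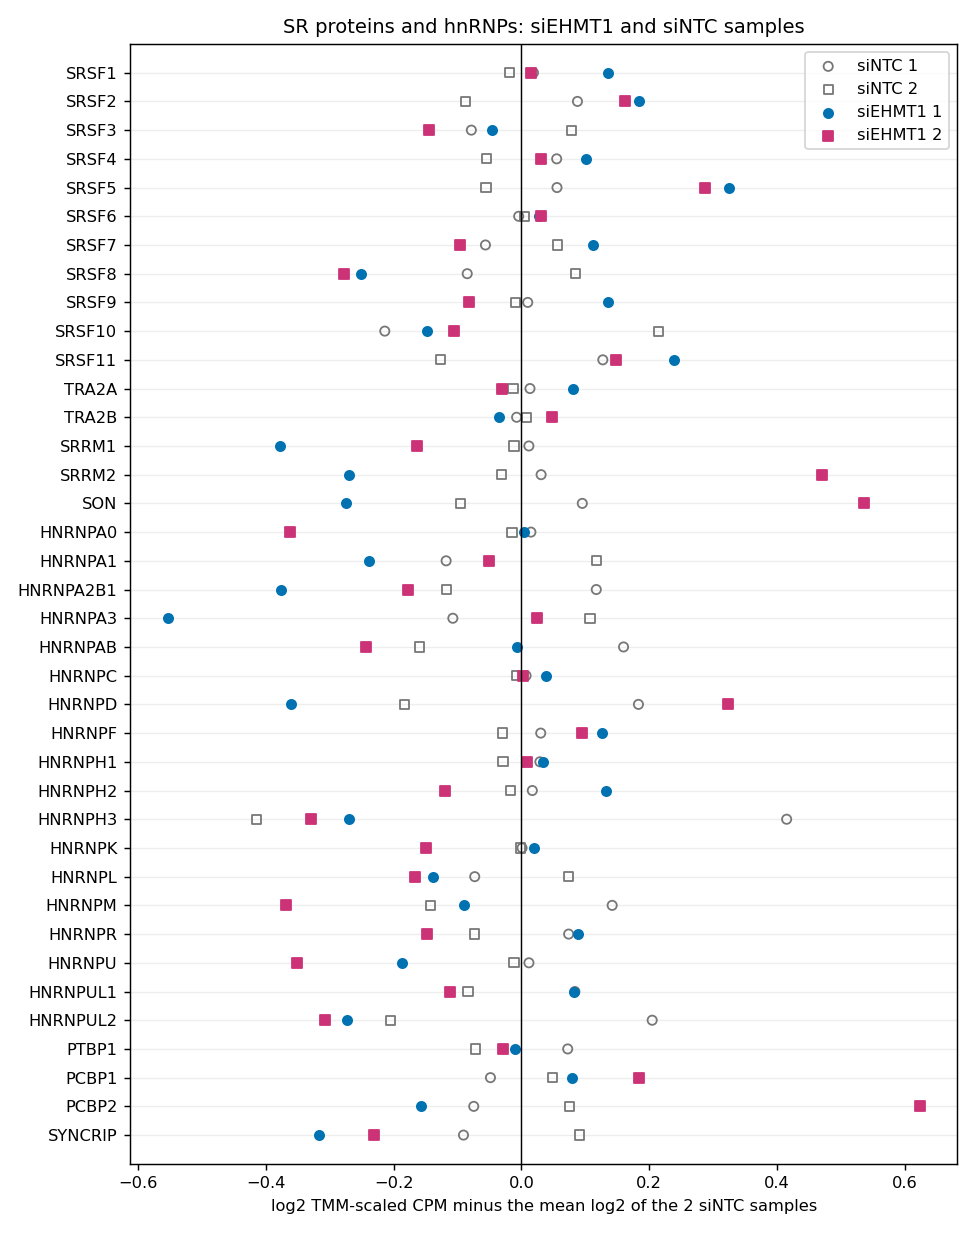
Level of each of the 38 tested members in the 4 siRNA samples, as log2 CPM minus the mean log2 of the 2 siNTC samples. Open symbols are siNTC, filled symbols siEHMT1, and shapes give the replicate. SRRM2, SON and PCBP2 lie far to the right in siEHMT1 replicate 2 alone, while SRSF5 lies to the right and HNRNPU to the left in both siEHMT1 samples.

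Among SR proteins, SRSF5 was the member with the smallest p. SRSF5 promotes exon inclusion and shuttles between nucleus and cytoplasm. It measured 98.6 and 91.3 CPM in siNTC and 119 and 116 CPM in siEHMT1. Both siEHMT1 samples lay above both siNTC samples, with a log2 difference of 0.30 ± 0.09 (SE, n = 2 against 2) and an edgeR adjusted p of 0.26. SRSF2 measured 205 and 181 CPM in siNTC and 219 and 216 CPM in siEHMT1, a log2 difference of 0.17 ± 0.09 with an adjusted p of 0.573 in edgeR. SRSF11, which acts in neuronal microexon splicing, measured 59.4 and 49.8 CPM in siNTC and 64.2 and 60.3 CPM in siEHMT1, or 0.19 ± 0.11 with an edgeR adjusted p of 0.626. In both genes the groups did not overlap, yet the step between the group means was close to the gap between the siNTC samples. The 11 SR proteins tested had log2 differences from −0.26 to 0.30 with a median of 0.03.

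Among hnRNPs, HNRNPU, a nuclear scaffold protein that binds chromatin-associated RNA, measured 268 and 263 CPM in siNTC and 233 and 208 CPM in siEHMT1. Its log2 difference was −0.27 ± 0.09 (SE, n = 2 against 2) with an edgeR adjusted p of 0.312. HNRNPA2B1, which sorts RNAs for transport and represses exons, measured 88.8 and 75.5 CPM against 63.1 and 72.4 CPM, or −0.28 ± 0.11 (edgeR adjusted p 0.417). SYNCRIP, also named hnRNP Q and known in mRNA stability and translation, measured 62.9 and 71.3 CPM in siNTC and 53.8 and 57.1 CPM in siEHMT1, or −0.27 ± 0.11 (edgeR adjusted p 0.417). In HNRNPU, HNRNPA2B1 and SYNCRIP both siEHMT1 samples lay below both siNTC samples, while none passed the threshold over all genes. HNRNPM, a splicing regulator of epithelial to mesenchymal programs, overlapped between the groups at 101 and 82.8 CPM against 85.8 and 70.7 CPM. Its log2 difference was −0.23 ± 0.11 with an edgeR adjusted p of 0.533. The 6 genes of the hnRNP A/B and D group had a median log2 difference of −0.155, the 3 of the hnRNP U group −0.27, and the 3 of the hnRNP K and E group 0.13.

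Of the SR-related proteins, SRRM2 and SON differed more between the siEHMT1 samples than between the group means. SRRM1, a splicing coactivator that bridges SR proteins and snRNPs, measured 35.1 and 34.6 CPM in siNTC and 26.8 and 31.1 CPM in siEHMT1, with a log2 difference of −0.27 ± 0.13 (edgeR adjusted p 0.527). SRRM2, a scaffold of nuclear speckles, measured 180 and 172 CPM in siNTC but 146 and 244 CPM in siEHMT1. SON, the second speckle scaffold, measured 117 and 103 CPM in siNTC and 90.8 and 159 CPM in siEHMT1. PCBP2, a poly(C)-binding hnRNP of the E group, measured 22.1 and 24.5 CPM in siNTC and 20.9 and 35.9 CPM in siEHMT1. In each of these 3 genes siEHMT1 replicate 1 was the lowest of the 4 samples and replicate 2 the highest, as it was for HNRNPD at 22.7, 17.6, 15.6 and 25 CPM. The nuclear long noncoding RNAs MALAT1 and NEAT1 were also highest in siEHMT1 replicate 2, with 785, 964, 788 and 1667 CPM for MALAT1 and 223, 299, 257 and 511 CPM for NEAT1 in siNTC 1, siNTC 2, siEHMT1 1 and siEHMT1 2. Their part in these values was not tested. With siEHMT1 replicate 1 left out, SRRM2 and SON were called higher, at log2 0.47 and 0.53 with edgeR adjusted p of 0.049 and 0.0361. With siEHMT1 replicate 2 left out, the log2 difference of SRRM2 was −0.27 with an edgeR adjusted p of 0.395.

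With Dox, 6 members were lower over the 4 lines and none was higher. The lines served as replicates of the Dox effect, with the line as a term in the edgeR fit. SRRM2, PCBP2, HNRNPD, SRSF4, HNRNPA1 and HNRNPA2B1 fell with an adjusted p under 0.05 and no member rose, so 6 of 38 members were called, against 298 of 14105 genes (2.11%). Calls toward lower levels made up 1.51% of all genes. At an unadjusted p under 0.05, 16 members were lower and 1 was higher, beside 14.4% of all genes in either direction. The log2 change was negative in 31 of the 38 members, with a median of −0.12, while the median of all genes was 0.00498. In 12 members the level was lower with Dox in all 4 lines (10.1% of all genes), and in SRSF8 and SYNCRIP it was higher in all 4 (10.7% of all genes). Scaling by total counts, an alternative added after seeing the data, moved the median of all genes to 0.0883 and turned the split of called genes from 213 lower and 85 higher to 108 lower and 326 higher (3.08% of all genes). SRRM2, PCBP2 and HNRNPD were then still called lower, with edgeR adjusted p of 0.0284, 0.0223 and 0.0349, whereas SRSF4, HNRNPA1 and HNRNPA2B1 were not, with 0.089, 0.0756 and 0.147. On that scale 22 of the 38 members had a negative log2 change, with a median of −0.04. The counts come from bulk RNA, in which fewer cells expressing a gene and less RNA per cell cannot be told apart.

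**Figure D3:**
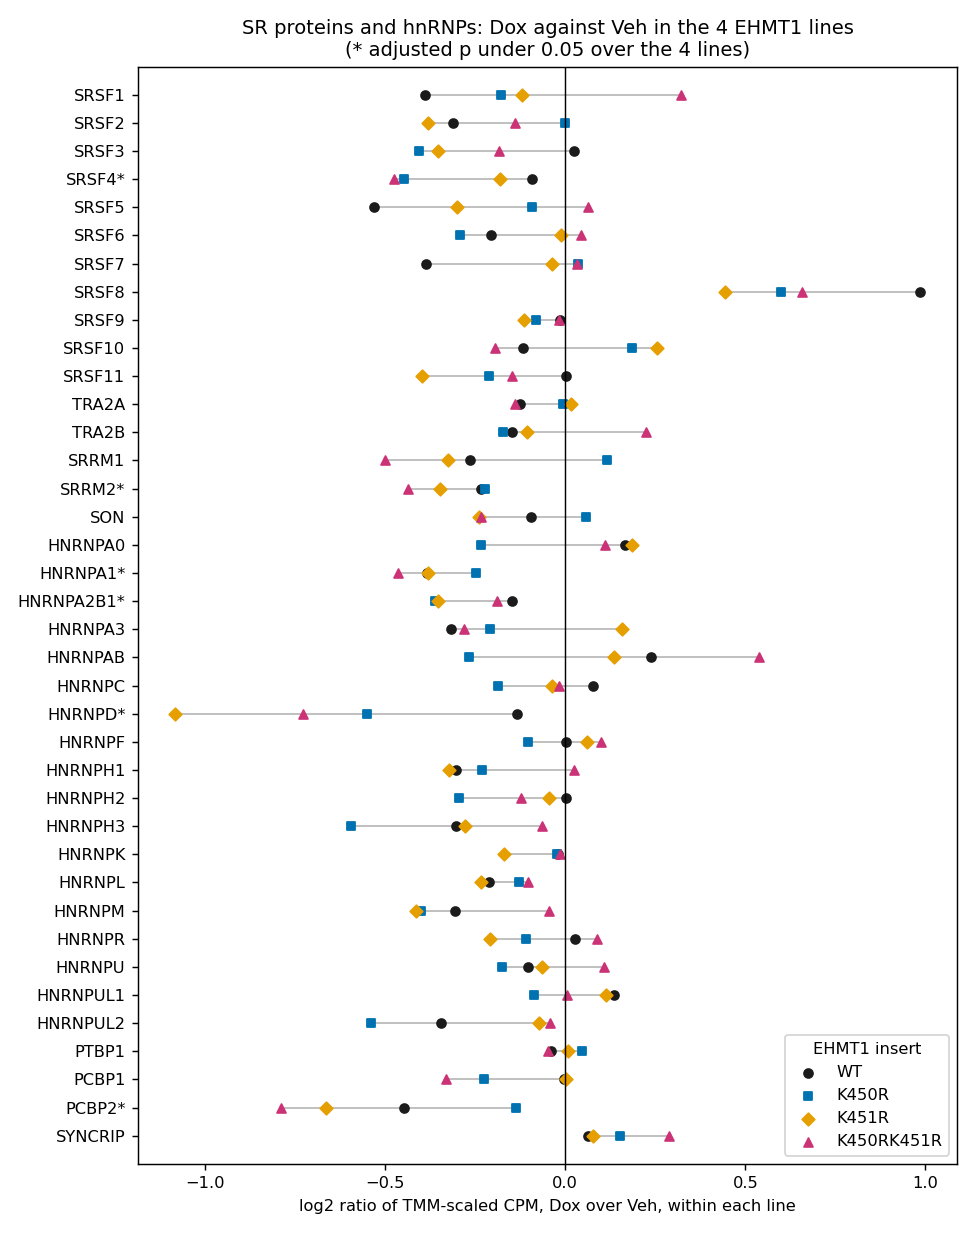
Log2 ratio of Dox over Veh for the 38 tested members in each of the 4 lines, 1 symbol per line, with a grey bar from the lowest to the highest line. Asterisks mark the 6 members with an adjusted p under 0.05 over the lines. Most symbols lie left of 0, HNRNPD spreads from −1.08 in K451R to −0.13 in WT, and SRSF8 lies right of 0 in every line.

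SRRM2 had the smallest p. Its level with Veh and then Dox was 183 and 155 CPM in WT, 180 to 154 CPM for K450R, 160 to 126 CPM for K451R, and 204 to 151 CPM for K450RK451R. Every Dox library lay below every Veh library. The log2 change was −0.31 ± 0.06 (SE, n = 4 lines) with an edgeR adjusted p of 0.00243. The gene spans chromosome 16 from 2802627 to 2822539 on the plus strand of GRCh37, none of its canonical exon bases overlap another gene, and all of its windows were found once.

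PCBP2, which stabilises mRNAs and promotes their translation, measured 30.6 CPM with Veh and 22.4 CPM with Dox in WT, 31.3 to 28.5 CPM for K450R, 25.9 to 16.4 CPM for K451R, and 44.4 to 25.7 CPM for K450RK451R. The Veh and Dox libraries overlapped across lines, although each line was lower with Dox. Its log2 change was −0.52 ± 0.10 with an adjusted p of 0.00475 in edgeR over n = 4 lines. PCBP2 lies on chromosome 12 from 53845886 to 53874946 (plus strand, GRCh37), and 74.6% of its canonical exon bases are also exons of MAP3K12, on the other strand, or of RP11-793H13.8. MAP3K12 measured 36.7 and 36.3, 35.0 and 28.1, 29.2 and 20.4, and 23.2 and 27.3 CPM with Veh and Dox in the same order of lines, a log2 change of −0.14 with an edgeR adjusted p of 0.581. RP11-793H13.8 had 0 counts throughout. The sources used here do not give whether strand was used in counting, so PCBP2 and MAP3K12 may share reads.

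HNRNPD, also called AUF1, binds AU-rich elements and directs mRNA decay. It measured 19.4 CPM with Veh and 17.7 CPM with Dox in WT, 18.1 to 12.4 CPM for K450R, 19.8 to 9.36 CPM for K451R, and 22.3 to 13.5 CPM for K450RK451R. All Dox libraries lay below all Veh libraries, with the widest step in K451R and the narrowest in WT. Over n = 4 lines HNRNPD changed by −0.61 ± 0.13 on the log2 scale, with an edgeR adjusted p of 0.0117. In counts, the K451R library held 163 with Veh and 115 with Dox, and its log2 ratio of −1.08 had a 95% exact binomial counting interval from −1.44 to −0.73. In WT the ratio was −0.13, with an interval from −0.44 to 0.17.

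SRSF4, also called SRp75, is among the longest SR proteins and enhances exon inclusion. It measured 120 CPM with Veh and 112 CPM with Dox in WT, 125 to 91.3 CPM for K450R, 99.9 to 88.2 CPM for K451R, and 110 to 79.2 CPM for K450RK451R. Each line fell, but the WT Dox library lay above the Veh libraries of K451R and K450RK451R. On the log2 scale SRSF4 changed by −0.30 ± 0.07 over n = 4 lines (edgeR adjusted p 0.016).

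HNRNPA1, a repressor of exons and an antagonist of SRSF1 in splice site choice, measured 43.2 CPM with Veh and 33.1 CPM with Dox in WT, 38.2 to 32.2 CPM for K450R, 40.2 to 30.9 CPM for K451R, and 30.3 to 22 CPM for K450RK451R. The log2 ratio of Dox over Veh was −0.38, −0.25, −0.38 and −0.46 in the same order, and K450RK451R stood below the others under both treatments. The log2 change was −0.37 ± 0.09 over n = 4 lines (edgeR adjusted p 0.0185). The tables hold 75 processed copies named after HNRNPA1, with 67.9 counts on the copies for every 100 on the gene in the stable lines. The log2 ratio of Dox over Veh of the summed copies was 0.08 for WT, −0.11 for K450R, −0.29 for K451R and 0.03 for K450RK451R. Gene and copies together gave −0.19, −0.19, −0.35 and −0.26, so the fall was shallower in each line when reads on the copies were added.

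HNRNPA2B1 measured 84.9 CPM with Veh and 76.6 CPM with Dox in WT, 99.8 to 77.7 CPM for K450R, 98.2 to 76.9 CPM for K451R, and 83.6 to 73.4 CPM for K450RK451R. All Dox libraries lay below all Veh libraries, and the Dox libraries lay close together at 76.1 ± 1.905 CPM (SD, n = 4). On the log2 scale it changed by −0.26 ± 0.07 over n = 4 lines (edgeR adjusted p 0.0317). HNRNPA1, HNRNPA2B1 and HNRNPD are 3 of the 6 members of the hnRNP A/B and D group. The others were HNRNPA0 at 0.06 ± 0.07, HNRNPA3 at −0.18 ± 0.15 and HNRNPAB at 0.20 ± 0.12 on the log2 scale, none past the threshold.

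**Figure D4:**
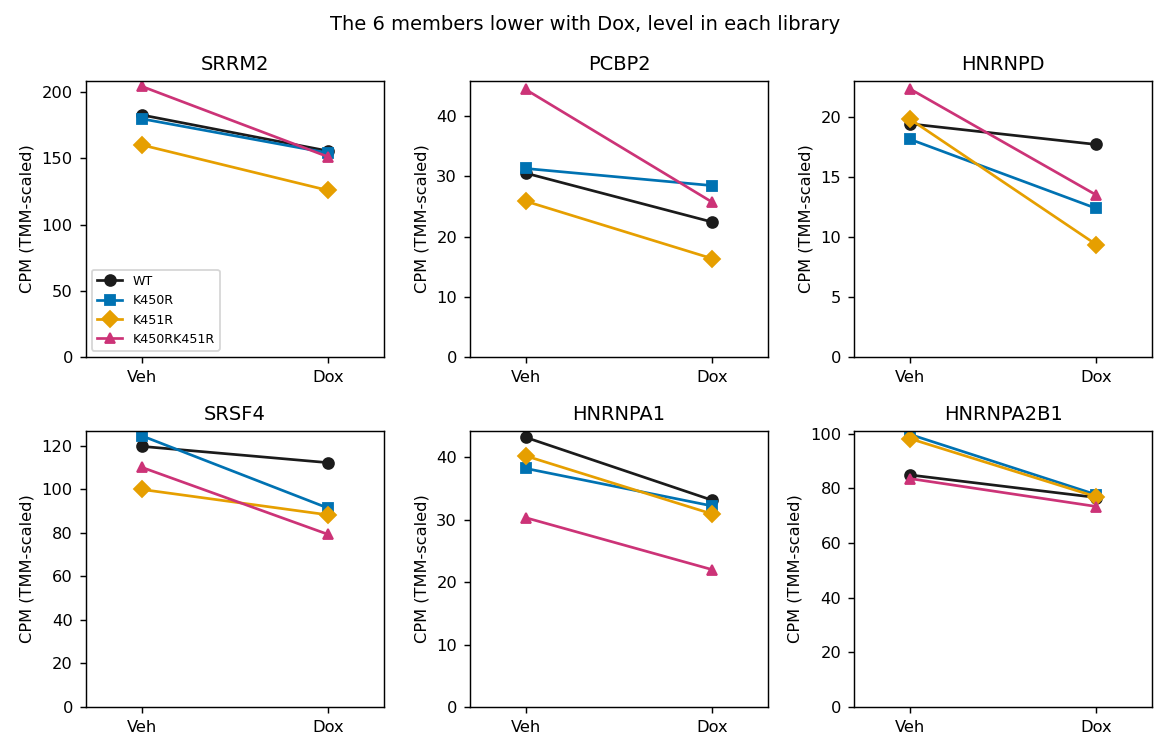
Level in CPM of the 6 called members in each library with Veh and Dox, 1 line of points per EHMT1 line, with axes from 0. Each line falls in each panel. HNRNPD drops furthest in K451R (19.8 to 9.36 CPM) and PCBP2 in K450RK451R (44.4 to 25.7 CPM).

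The set of called members depended on the lines included and changed with total-count scaling. Upper-quartile scaling and DESeq2 size factors in edgeR called the same 6. Without K450R only PCBP2 and SRRM2 were called, and without K451R PCBP2, SRRM2 and SRSF4. Without K450RK451R, SRRM2 and HNRNPA2B1 remained called, together with HNRNPH1 and HNRNPM. Without WT all 6 were called as well as SRSF3, an SR protein that links splicing to mRNA export. Those fits hold fewer libraries. DESeq2 called PCBP2, SRRM2, HNRNPD and SRSF4. SRRM2 was called under all 12 alternatives to the edgeR fit, with an adjusted p between 0.000994 and 0.0306. PCBP2 was called under 11, SRSF4 and HNRNPD under 9, and HNRNPA2B1 under 8, whereas HNRNPA1 was called under 7 of them, with an adjusted p between 0.0172 and 0.113.

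Because the 6 called members moved in one direction, the 250 bases before their transcription starts are shown. RefSeq holds such a stretch on GRCh38.p14 for 36 of the 39 members and for 5 of the 6 called ones, while HNRNPA1, SRSF2 and TRA2A had no entry. Of 8 motifs searched, 5 short ones are in capitals where they occur on either strand: GGGCGG (GC box of SP1 and KLF factors), CCGGAAG (ETS factors), CCAAT (bound by NF-Y), TGACG (half-site of cyclic AMP response elements) and CACGTG (E-box). The stretches lie at chr16:2752388-2752637 (SRRM2, plus strand), chr12:53451852-53452101 (PCBP2, plus strand), chr4:82373992-82374241 (HNRNPD, minus strand), chr1:29181901-29182150 (SRSF4, minus strand) and chr7:26200747-26200996 (HNRNPA2B1, minus strand), and are written from 5′ to 3′ of the gene.
SRRM2: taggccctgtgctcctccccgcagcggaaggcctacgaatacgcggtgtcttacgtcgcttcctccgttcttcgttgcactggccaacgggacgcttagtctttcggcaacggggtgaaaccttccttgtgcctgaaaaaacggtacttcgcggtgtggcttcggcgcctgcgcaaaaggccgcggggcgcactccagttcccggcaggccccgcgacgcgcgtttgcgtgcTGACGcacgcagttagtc
PCBP2: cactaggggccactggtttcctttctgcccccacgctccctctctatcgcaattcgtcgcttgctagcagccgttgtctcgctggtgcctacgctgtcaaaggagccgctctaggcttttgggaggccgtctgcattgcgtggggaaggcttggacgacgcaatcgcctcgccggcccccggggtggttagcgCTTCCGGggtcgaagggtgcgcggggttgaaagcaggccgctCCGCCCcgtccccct
HNRNPD: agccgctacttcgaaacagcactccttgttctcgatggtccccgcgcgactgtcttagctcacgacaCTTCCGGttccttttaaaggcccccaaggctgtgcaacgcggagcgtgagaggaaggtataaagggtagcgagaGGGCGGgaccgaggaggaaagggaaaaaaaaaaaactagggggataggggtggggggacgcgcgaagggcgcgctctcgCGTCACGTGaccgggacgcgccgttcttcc
SRSF4: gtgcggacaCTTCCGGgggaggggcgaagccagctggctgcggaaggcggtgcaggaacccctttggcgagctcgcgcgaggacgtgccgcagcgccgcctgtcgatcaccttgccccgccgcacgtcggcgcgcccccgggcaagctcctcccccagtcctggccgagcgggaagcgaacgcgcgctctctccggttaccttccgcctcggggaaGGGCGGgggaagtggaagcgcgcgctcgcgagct
HNRNPA2B1: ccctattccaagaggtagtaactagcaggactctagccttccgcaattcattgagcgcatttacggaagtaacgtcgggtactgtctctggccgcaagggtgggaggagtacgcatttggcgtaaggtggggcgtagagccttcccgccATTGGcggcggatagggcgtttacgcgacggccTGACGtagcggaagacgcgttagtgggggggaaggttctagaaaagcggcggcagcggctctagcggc

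No motif was held by all 5 stretches. The GC box was in HNRNPD, PCBP2 and SRSF4, and in 57.7% of the 52 stretches of members against 42.6% of all 35116. The ETS motif was in the same 3 genes, in 11.5% of member stretches and 8.52% of all. The CRE half-site was in HNRNPA2B1, HNRNPD and SRRM2, in 42.3% of member stretches and 21.2% of all. The CCAAT box was in HNRNPA2B1 alone among the 5, in 42.3% of member stretches and 32% of all, and the E-box in HNRNPD alone, in 9.62% and 6.34%, where it overlapped the CRE half-site. Of the other 3 motifs, GCGCATGC (part of the NRF1 site), AAGATGGC (YY1) and TTTGGCGC (E2F), none was in the 5 stretches, and they were in 5.77%, 0% and 0% of member stretches and 2.63%, 1.36% and 0.55% of all. A match is a description of these letters and not evidence of binding.

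Of the other SR proteins with an unadjusted p under 0.05, SRSF3, SRSF2, SRSF11 and SRSF5 were each lower in 3 of the 4 lines and SRSF8 was higher in all 4, none past the threshold. SRSF3 measured 82.5 and 83.9 CPM with Veh and Dox in WT, 75.5 to 57.0 CPM for K450R, 70.4 to 55.1 CPM for K451R, and 64.7 to 57.0 CPM for K450RK451R. The WT line was level while the other lines were lower, with an overall log2 change of −0.22 ± 0.07 (edgeR adjusted p 0.126). SRSF2, SRSF5 and SRSF11 had log2 changes of −0.21, −0.21 and −0.19 with adjusted p of 0.181, 0.241 and 0.192. SRSF8, a copy of SRSF2 that arose by retrotransposition, was the member with the largest positive change. It had 29 counts with Veh and 43 with Dox in WT, 28 and 49 for K450R, 30 and 61 for K451R, and 31 and 64 for K450RK451R. Veh and Dox libraries did not overlap, at 2.45 to 3.65 and 4.85 to 5.23 CPM, yet at these few counts the log2 change of 0.66 ± 0.24 had an edgeR adjusted p of 0.156. Of the 4 members whose Veh and Dox libraries did not overlap, SRSF8 was higher and SRRM2, HNRNPA2B1 and HNRNPD were lower, beside 4.59% of all genes in either direction. SRSF9, SRSF6, SRSF7, SRSF10, TRA2A and TRA2B had log2 changes between −0.11 and 0.03. SRSF6 and SRSF7 are close relatives of SRSF4 and SRSF3, SRSF10 is a splicing repressor when dephosphorylated, and TRA2A and TRA2B bind purine-rich enhancers.

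Among the hnRNPs outside the A/B and D group, only PCBP2 was called, and HNRNPH1 and HNRNPM came nearest to the threshold among the rest. HNRNPH1, which binds guanine runs and regulates splicing, measured 148 and 120 CPM with Veh and Dox in WT, 137 to 117 CPM for K450R, 157 to 125 CPM for K451R, and 117 to 119 CPM for K450RK451R. WT, K450R and K451R came down to near the level at which K450RK451R stood under both treatments. The log2 change was −0.21 ± 0.06 (edgeR adjusted p 0.0883). HNRNPM measured 46.1 and 37.3 CPM in WT, 40.9 to 31.0 CPM for K450R, 36.2 to 27.2 CPM for K451R, and 31.8 to 30.8 CPM for K450RK451R, with a log2 change of −0.29 ± 0.09 (edgeR adjusted p 0.0884). As with HNRNPH1, K450RK451R had the lowest Veh level and the smallest step. HNRNPL, a regulator that binds CA repeats, was lower in all 4 lines at −0.17 ± 0.06 (edgeR adjusted p 0.162), and HNRNPH3 at −0.30 ± 0.13 (edgeR adjusted p 0.298). The abundant members PTBP1, HNRNPF, HNRNPC, HNRNPK and HNRNPU, which hold repressor, processing and scaffold roles, had log2 changes between −0.06 and 0.02. HNRNPR, HNRNPUL1 and HNRNPH2 measured −0.05 ± 0.07, 0.04 ± 0.06 and −0.11 ± 0.08, HNRNPUL2 −0.24 ± 0.17 and PCBP1 −0.14 ± 0.08. SYNCRIP was higher in all 4 lines at 0.15 ± 0.10 (edgeR adjusted p 0.518), and the speckle scaffold SON measured −0.13 ± 0.06 (edgeR adjusted p 0.345).

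Within a line there is 1 library per treatment, so members were counted, without a test, where Dox and Veh differed by more than 0.32 on the log2 scale, among the 36 members and 9145 genes with a mean of at least 100 counts. In WT, 5 members were lower and 0 higher, beside 6.47% and 4.81% of all genes. In K450R, 6 were lower and 0 higher, beside 6.93% and 8.39%. In K451R, 11 were lower and 0 higher, beside 7.37% and 8.15%. In K450RK451R, 7 were lower and 1 higher, beside 8.35% and 9.61%. The median log2 ratio of the 38 tested members was −0.12 for WT, −0.18 for K450R, −0.12 for K451R and −0.05 for K450RK451R. Scaling by total counts in place of TMM moved the median of all genes to 0.13 in K451R and 0.139 in K450RK451R. The members' medians then became 0.01 and 0.09, since such a scaling shifts every gene of a line alike. Among the 36 members, 2 were then lower and 1 higher in K451R, beside 3.20% and 18.3% of all genes, and 5 were lower and 4 higher in K450RK451R, beside 3.23% and 20.7%.

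Lines differed most in HNRNPD, HNRNPAB, SRSF1, PCBP2, SRRM1 and SRSF5, the 6 members with the widest range of log2 ratios among those with at least 100 counts. HNRNPAB, a relative of HNRNPD, measured 16.5 and 19.5 CPM with Veh and Dox in WT, 15.9 to 13.2 CPM for K450R, 23.7 to 26.04 CPM for K451R, and 19.9 to 28.9 CPM for K450RK451R. It was lower in K450R and higher elsewhere, most in K450RK451R. Only in K450RK451R did the 95% counting interval of its log2 ratio, 0.29 to 0.80, exclude 0. SRSF1 measured 45.2 and 34.5 CPM in WT, 43.3 to 38.3 CPM for K450R, 47.9 to 44.1 CPM for K451R, and 41.0 to 51.2 CPM for K450RK451R, the only line in which it was higher with Dox. SRRM1 measured 34.4 and 28.6, 28.7 and 31.2, 32.2 and 25.7, and 41.3 and 29.2 CPM in the same order, higher in K450R alone. Its counting interval in K450R, −0.14 to 0.37, included 0. Over the 4 lines SRRM1 changed by −0.26 ± 0.10 on the log2 scale (edgeR adjusted p 0.184). SRSF5 measured 49.2 and 34.0, 45.5 and 42.7, 52.2 and 42.3, and 41.9 and 43.8 CPM, with its largest step in WT. HNRNPD and PCBP2 are given above.

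Each line was compared with the other 3 by an interaction term in edgeR, which leaves 2 residual degrees of freedom among the libraries. No member was called in any line, with edgeR or with limma-voom, while 23 genes (0.163%) were called for WT, 6 (0.0425%) for K450R, 8 (0.0567%) for K451R and 2 (0.0142%) for K450RK451R. At an unadjusted p under 0.05, WT had 2 members higher and 3 lower than the other lines (7.10% of all genes), K450R 2 higher and 1 lower (3.45%), K451R 0 (2.91%) and K450RK451R 2 higher and 0 lower (7.39%). The member with the smallest p was SRSF1, whose Dox effect in K450RK451R exceeded that of the other lines by 0.55 ± 0.18 on the log2 scale with an edgeR adjusted p of 0.475. HNRNPD fell less with Dox in WT than in the other lines, by 0.65 ± 0.28 on the log2 scale (edgeR adjusted p 0.621). Neither difference passed the threshold over all genes.

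Other genes of the pathway were taken from 5 lists. Among 10 kinases and import factors of SR proteins and hnRNPs, CLK1 and CLK3 fell with Dox and 0 rose. CLK1 measured 161 and 135 CPM with Veh and Dox in WT, 153 to 110 CPM for K450R, 138 to 80.7 CPM for K451R, and 114 to 66.6 CPM for K450RK451R. It was lower in every line and by more in K451R and K450RK451R. Its log2 change was −0.57 ± 0.07 (SE, n = 4 lines) with an edgeR adjusted p of 2.09e-05. CLK3 changed by −0.31 ± 0.06 (edgeR adjusted p 0.00206), and CLK2 measured −0.32 ± 0.09 with an edgeR adjusted p of 0.0561, while the cytoplasmic kinase SRPK1 measured 0.02 ± 0.09 (edgeR adjusted p 0.953). CLK4 stood at 0.23 on the log2 scale in WT and between −0.37 and −0.29 in the other lines, with an edgeR adjusted p of 0.509 over the 4. When each line was compared with the others by the interaction term in edgeR, no gene of the 5 lists was called. Of 12 hnRNP relatives, HNRNPDL, a paralog of HNRNPD, changed by −0.275 ± 0.07 on the log2 scale (edgeR adjusted p 0.0345) and none rose. No gene was called among 16 tested splicing regulators of other families, 26 core spliceosome genes or 10 genes of nonsense-mediated decay. At an unadjusted p under 0.05 in edgeR, 2 of the 16 were lower, 8 of the 26 lower and 1 higher, and 1 of the 10 lower, beside 14.4% of all genes. In the first 2 of these lists the smallest p belonged to RBM25 and SF3B1, with log2 changes of −0.26 and −0.20 and edgeR adjusted p of 0.0556 and 0.0602. The median log2 change was −0.04 for the kinases and import factors, −0.10 for the relatives, 0.00285 for the other regulators, −0.09 for the core spliceosome and −0.05 for nonsense-mediated decay.

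With siEHMT1 edgeR called 0 genes in these lists, and at an unadjusted p under 0.05 they held 1 of 10 kinases and import factors, 1 of 12 relatives, 3 of 16 other regulators, 1 of 26 core spliceosome genes and 0 of 10 genes of nonsense-mediated decay, beside 9.55% of all genes. The smallest p among the kinases and import factors belonged to SRPK1 (log2 difference −0.25, edgeR adjusted p 0.422), among the other regulators to RBM25 (−0.26, 0.435) and in the core spliceosome to SNRPD2 (0.26, 0.363). SNRPD2, a core snRNP protein, measured 125 and 115 CPM in siNTC and 151 and 136 CPM in siEHMT1, so both siEHMT1 samples lay above both siNTC samples.

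The nuclear noncoding RNAs MALAT1 and NEAT1 were also lower with Dox in each line. MALAT1 fell from 2858, 2499, 1868 and 1679 CPM with Veh to 1300, 1294, 845 and 1229 CPM with Dox in WT, K450R, K451R and K450RK451R. NEAT1 fell from 1122, 836, 670 and 335 CPM to 254, 268, 177 and 247 CPM. Their log2 changes were −0.92 ± 0.07 and −1.55 ± 0.14 with edgeR adjusted p of 5.29e-09 and 4.42e-08. The noncoding snoRNA host gene SNHG1 and CCNL1, a cyclin of the splicing machinery, changed by −0.66 and −0.61 with edgeR adjusted p of 1.7e-07 and 1.92e-05. CCNL2 changed by −0.385 (edgeR adjusted p 0.0145) but stood at 0.083 on the log2 scale in K450RK451R. MALAT1 and NEAT1 fell least in K450RK451R. Of the 6 called members, SRRM2, PCBP2, SRSF4 and HNRNPA1 had their largest step on the TMM scale in that line. HNRNPD had it in K451R and HNRNPA2B1 in K450R. For SRSF4 the counting intervals overlapped widely, at −0.47 (−0.60 to −0.35) in K450RK451R and −0.45 (−0.58 to −0.32) in K450R. With its copies added, HNRNPA1 had its largest step in K451R. Total-count scaling moved the median of all genes to 0.139 in K450RK451R but to 0.0336 in K450R, so this order can change with the scaling. HNRNPM and HNRNPH1, which were not called, stood at −0.05 and 0.02 on the log2 scale in K450RK451R. The share of mitochondrial counts was 12.05% to 14.4% with Veh and 8.04% to 13.7% with Dox. The part of these shifts in the members' changes was not tested.

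**Figure D5:**
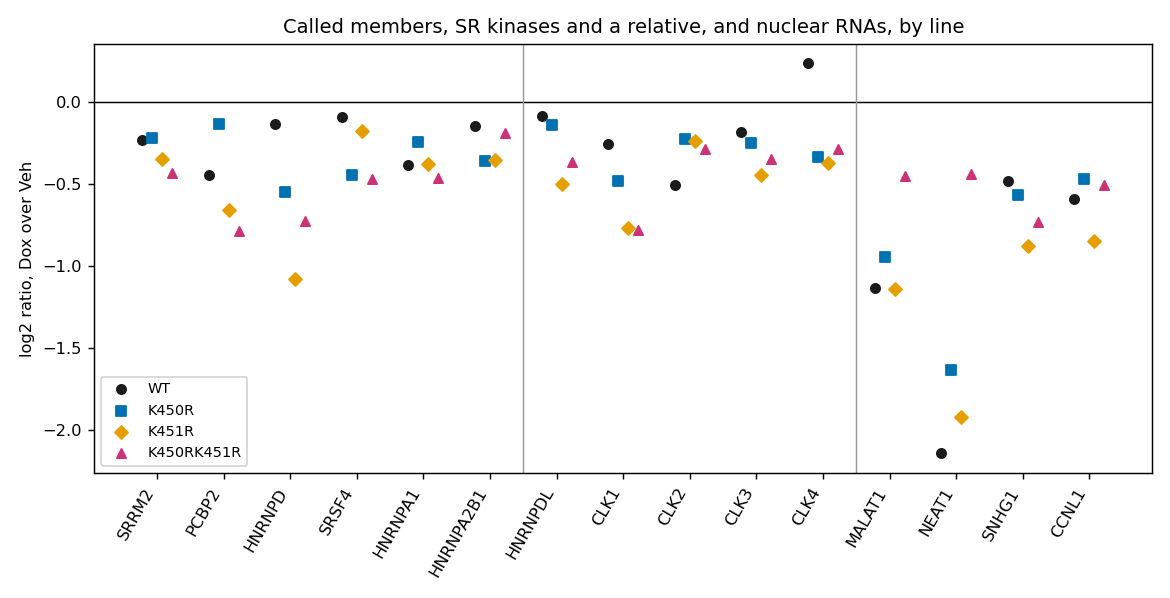
Log2 ratio of Dox over Veh in each of the 4 lines for the 6 called members, for HNRNPDL and the kinases CLK1 to CLK4, and for the nuclear RNAs MALAT1 and NEAT1 with SNHG1 and CCNL1. All points lie below 0 except CLK4 in WT, at 0.23, and NEAT1 reaches −2.15 in WT against −0.44 in K450RK451R.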

How the data were processed

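Total RNA of LNCaP cells was sequenced as stranded libraries with single-end 51 nt reads and mapped to hg19. The authors deposited raw counts, the whole number of reads per Ensembl gene, in 2 tables without normalization. The submitters' processing notes name FastQC 0.11.9, STAR 2.7.2 and featureCounts 1.6.4. The annotation release, the strand setting and the treatment of reads with several matches are not given in the sources used here. All columns were matched to samples by name.

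Tests ran in R 4.3.3. Counts were filtered with edgeR's default filter, scaled by TMM and tested by the quasi-likelihood method of edgeR (version 4.0.16) with Benjamini-Hochberg adjustment over all genes tested, at 0.05. The siRNA groups were fitted without a block. Stable-line columns were summed within conditions, and 8 libraries were fitted with line and Dox as terms, or with a further term for 1 line's Dox effect. Within a line, exact binomial intervals of 95% cover counting error. Genes were described by rule: every member past the threshold, the 8 with the smallest p in the siRNA and Dox tests, the 6 with the widest range over lines, the 3 highest and 3 lowest per kilobase, and in each pathway list the called genes and that with the smallest p. Some genes of the pathway and marker lists are not reported here by name. SON, SRSF3, SRSF8, MALAT1, NEAT1, SNHG1, CCNL1, CCNL2 and MAP3K12 were described after their values were seen. Members and lists were chosen with earlier results of these data known. Alternatives were DESeq2 (version 1.42.0), voom in limma (version 3.58.1), legacy quasi-likelihood, other scalings and filters, a replicate block, and each sample, column or line left out; levels per uniquely found window and total-count scaling of the fit over lines were added after seeing the data. Positions come from GENCODE release 44 on GRCh37, in which 55538 of 57773 identifiers were found. Of the 40 rows of members 38 were found, all but the 2 of SRSF8. The tests were also run on simulated counts. Those counts had the same set spread in every comparison, not one taken from the siRNA samples.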

Additional observations from a re-analysis of the deposited data

Results flagged for a closer look

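A pair of members had 1 line set apart from the other 3 in the log2 ratio of Dox over Veh, by Dixon's criterion for 4 values, which chance meets in about 1 of 20 such sets; 38 sets were examined. TRA2B, an activator of purine-rich enhancers, had a ratio of 0.225 in K450RK451R, against −0.15 in WT, −0.17 in K450R and −0.11 in K451R, from 35.0 to 40.9 CPM in that line. HNRNPK, a poly(C)-binding hnRNP, had a ratio of −0.17 in K451R, against values between −0.02 and −0.01 in the other lines, from 180.5 to 160.5 CPM. Neither difference was called when that line was tested against the others.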

How the results depend on the processing

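The siRNA calls moved most. DESeq2 called 2 genes higher, and 6, 5 and 4 genes were lower with limma-voom, upper-quartile scaling and no filter, against 10 lower and 9 higher in edgeR. Leaving out each siRNA sample gave 18 to 82 genes lower, 20 to 41 higher, 0 to 2 members higher and a median of the members from −0.0694 to 0.0321. Under the replicate block edgeR called 62 genes lower, 56 higher and 0 members. The deviations of same-numbered samples correlated at −0.00518. With only 2 pairs this value cannot decide whether same-numbered samples were paired. No paired analysis was run for the stable lines. Their columns, labelled replicates 1 and 2, differed by no more than counting noise and were summed. The log2 difference of HNRNPD became −0.0392 with limma-voom, −0.00371 with legacy quasi-likelihood and −0.0275 with the block. With 1 siRNA sample left out, log2 differences that changed sign ran from −0.377 to 0.303 for HNRNPD, −0.282 to 0.0377 for HNRNPAB, −0.00904 to 0.0489 for HNRNPH1, −0.0843 to 0.138 for SRSF9, −0.548 to 0.0256 for HNRNPA3, −0.268 to 0.468 for SRRM2 and −0.154 to 0.622 for PCBP2.

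Over the lines, DESeq2 called 117 genes lower and 23 higher, against 213 and 85. Total-count scaling gave 108 lower, 326 higher, 3 members lower and a median of the members of −0.0395, and the sign changed for HNRNPU (0.0251), SRSF1 (0.00602), SRSF9 (0.0258) and HNRNPC (0.042). Leaving out each line gave 94 to 320 lower, 20 to 181 higher and 2 to 7 members lower. The sign then changed for SRSF1 (−0.229 to 0.0188), HNRNPC (−0.0793 to 0.00836) and HNRNPF (−0.0159 to 0.0537, and −0.000166 without K451R). For WT against the other lines, limma-voom called 2 lower and 41 higher, and no filter left 0 lower. For K450RK451R, limma-voom called 2 higher, and legacy quasi-likelihood and upper-quartile scaling 0 lower. Under total-count scaling the median of the 38 tested members was 0.0126 in K451R, with 2 lower and 2 higher, and 0.0907 in K450RK451R, with 5 higher. From single columns, 1 to 3 of them were higher in K450R and in K451R, 7 to 11 lower in K451R and 3 to 4 higher in K450RK451R.

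With 1 library per line and treatment, intervals within a line cover counting error only. SRSF8, with 28 to 64 counts in the stable lines, is limited by depth. Counts on HNRNPA1, HNRNPK, HNRNPC, HNRNPL and HNRNPA3 may be shared with processed copies, and those on PCBP2, PCBP1, HNRNPA3, SYNCRIP, HNRNPUL2, SRSF9, SRSF1, SRSF2 and HNRNPL with overlapping genes.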
